A study of Caenorhabditis elegans with 2 samples.

Results

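The genes lin-14, lin-28, lin-46, hbl-1, lin-41, lin-29 and lin-42 time larval development in Caenorhabditis elegans. These 7 members, of 19973 protein-coding genes, were chosen by name with earlier peak results in view. Each was examined in the Ensembl annotation of WBcel235 from 2000 bp upstream of its 5' end to its 3' end, which is called its window. A peak was given to a gene when its summit, the position of highest signal, lay in that window. The data are chromatin immunoprecipitation with sequencing (ChIP-seq) of DMD-9, a transcription factor of the DM-domain family. There was 1 group, of 2 biological replicates: strain RJP5357, which carries rp169(dmd-9::GFP::AID::TEV::3xFLAG) on chromosome IV, as whole L4 larvae aged 48 hours. The worms had been synchronised by bleaching and L1 starvation, and the fusion protein, made from the endogenous locus through a CRISPR insertion, was recovered with an antibody to GFP. Whole animals mix all tissues, so a site bound in few cells and a site bound weakly in many cells cannot be told apart. No other genotype, stage or treatment was compared, and the control library was not used here. The read depth of the replicates is unknown, so the signal, the peak caller's own measure of peak strength, carries no interval.

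Heterochronic genes set the order of stage-specific cell divisions, above all in the seam cells of the hypodermis. LIN-14, LIN-28 and HBL-1 act in early larvae and are repressed by microRNAs, among them lin-4 and the let-7 family, as larvae grow. LIN-46 acts downstream of LIN-28, and LIN-41 and LIN-29 govern the change from larva to adult. LIN-42 is the worm relative of the PERIOD proteins and shapes the oscillating gene expression of the moult cycles.

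The genes lin-14, lin-28 and lin-46, 3 of the 7, had a summit of the authors' thresholded list from pooled reads (the joint list, 1379 peaks) in their windows, and 4 had none. Over all protein-coding genes the share with such a summit was 7.37%. The members' windows ran from 3876 bp (lin-46) to 22312 bp (lin-14), against a median of 4027 bp for all protein-coding genes. Among the protein-coding genes with windows of 15000 bp or longer the share was 20.9%, and of the 3 members with such windows (lin-14, lin-29 and lin-42) lin-14 was the 1 with a joint peak. At 2 members, lin-28 and lin-46, the summit lay upstream of the 5' end, compared with 5.05% of all protein-coding genes. Since the members were named from these results, nothing is read from the difference between their counts and these shares.

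In the conservative list, which rests on the replicates compared with each other, the same 3 members had a peak, against 7.17% of all protein-coding genes. Each replicate's own thresholded list had a peak at 1 member, lin-46 in both cases, against 3.58% of genes for replicate 1 and 3.35% for replicate 2. Without replicate 1 or without replicate 2 the count of members is thus 1 in place of 3.

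**Figure D1:**
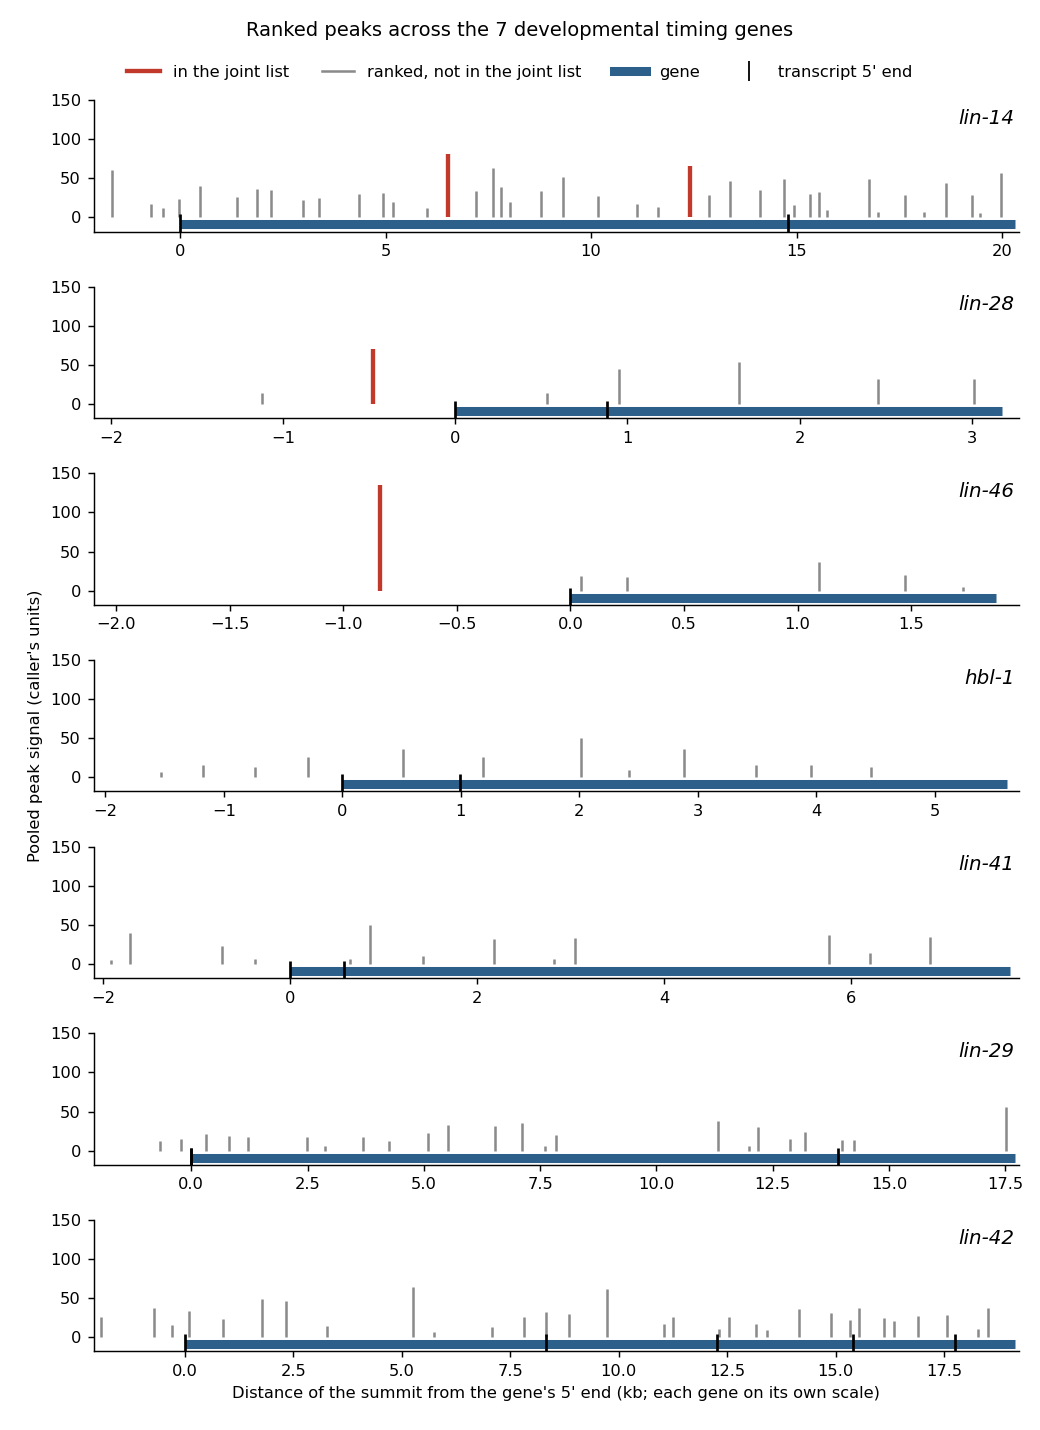
Signal of each peak of the pooled ranked list (vertical axis, in the caller's units) against the distance of its summit from the gene's 5' end in kb, 1 panel a gene. Red lines are peaks of the joint list, grey lines are ranked peaks outside it, blue bars the genes and black ticks the 5' ends of annotated transcripts. The red lines stand upstream of lin-28 and lin-46 and inside lin-14, and hbl-1, lin-41, lin-29 and lin-42 have grey lines alone.

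The map of peaks along the 7 genes shows how many weaker calls surround the joint peaks. The pooled ranked list, which holds 112594 peaks with a median signal of 22.5, placed 133 summits in the members' windows, and 129 of these were not in the joint list. Of the 133, 71 lay in introns, 29 in coding exons, 20 upstream and 13 in UTRs. A ranked peak is therefore common at a gene and was not treated as a site. The density of ranked summits ran from 1.17 per kb of window at lin-29 to 1.84 per kb at lin-14, with a median of 1.23 per kb over all protein-coding genes.

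lin-46 encodes a protein related to gephyrin and to bacterial enzymes of molybdenum cofactor synthesis, and it had the strongest peak of the 7 genes. The peak (chrV:12967876-12968159, ce11) had a pooled signal of 134.95, rank 258 of the 1379 joint peaks. Its signal was 68.8 in replicate 1 and 62.4 in replicate 2, a mean of 65.6 ± 4.55 (SD, n = 2). Both replicates placed it high: in the ranked list of replicate 1 only 0.456% of peaks had a higher signal, and in that of replicate 2 0.613% did. The global irreproducible discovery rate (IDR) is the expected share of irreproducible peaks among those ranked at least as high. In the pooled list it compares splits of the pooled reads, not the replicates with each other. For the lin-46 peak it was 0.000439 in the pooled list and 0.000497 between replicates. It was 0.000779 in replicate 1 and 0.00181 in replicate 2, and all 4 values were under 0.01. This threshold was inferred from the joint list, whose highest global IDR was 0.00997. Of 1444 pooled ranked peaks at or under 0.01, 65 were absent from the joint list. The q value of the lin-46 peak was 0.0227, the lowest value in the pooled list, which 507 peaks share. By strongest ranked peak in the window, 349 of all protein-coding genes (1.75%) stood above lin-46.

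The summit of the lin-46 peak lay between 2 genes that point away from each other, and it was nearer to the other gene, R186.8. The peak itself overlapped the R186.8 gene, from 12967876 to 12967982. The summit was 837 bp upstream of lin-46 (WBGene00003031, plus strand, 12968855 to 12970730) and 36 bp upstream of R186.8 (WBGene00011309, minus strand, 12967308 to 12967982). The 5' ends of the 2 genes are 873 bp apart, and R186.3 has its 5' end 808 bp from the same summit. The summit was 802 bp upstream of lin-46 in replicate 1 and 847 bp upstream in replicate 2. Given only to the nearest 5' end, the peak belongs to R186.8, and lin-46 has none. The remaining 5 ranked summits in the lin-46 window lay inside the gene, and the strongest of them, in coding sequence, had a signal of 37.1 and a global IDR of 0.213.

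The strongest peak is shown first because it is the 1 that each replicate called alone. The stretch below is on the plus strand of ce11, the strand of lin-46, at chrV:12967983-12968159, from the base next to the annotated R186.8 gene to the end of the peak, and capitals mark the 21 bases centred on the pooled summit.
lin-46 upstream peak: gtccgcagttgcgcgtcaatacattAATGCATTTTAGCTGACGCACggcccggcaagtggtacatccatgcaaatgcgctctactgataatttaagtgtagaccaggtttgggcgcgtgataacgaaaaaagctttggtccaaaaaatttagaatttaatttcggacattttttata
It has 41.2% G and C bases, and the whole peak has 38%, against a median of 44% over joint peaks and an interval from the 10th to the 90th percentile of 34.5% to 53.2%.

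lin-14 encodes a nuclear DNA-binding protein that specifies early larval fates, and it had 2 joint peaks, both inside introns. Of the 1472 protein-coding genes with a joint summit, 167 (11.3%) had more than 1. The first (chrX:11471938-11472221) had a pooled signal of 80.8, rank 786 of 1379, and its summit lay 6520 bp downstream of the 5' end of lin-14 (WBGene00003003, plus strand, 11465560 to 11485871). Its signal was 44.1 in replicate 1 and 33.7 in replicate 2, a mean of 38.9 ± 7.40 (SD, n = 2). The second (chrX:11477835-11478118) had a pooled signal of 66.2, rank 1208, and its summit lay 12417 bp downstream of the 5' end. Its signal was 31.2 in replicate 1 and 34.1 in replicate 2, a mean of 32.6 ± 2.00 (SD, n = 2). The first peak was the stronger one in replicate 1, and in replicate 2 the pair were nearly equal. No annotated 5' end of another protein-coding gene lay closer than 9807 bp to either summit. That distance is from the second summit to spp-9, whose 5' end was nearer to it than the 5' end of the lin-14 gene. The second summit was 2384 bp upstream of the start of the shorter annotated lin-14 transcript, T25C12.1b.1.

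Reproducibility of the lin-14 peaks was lower than at lin-46. The first peak had a global IDR of 0.00269 in the pooled list and 0.00454 in the list from the replicates compared with each other, but 0.0224 in replicate 1 and 0.804 in replicate 2. The second passed the threshold in the pooled list at 0.0097 and missed it between replicates at 0.0101, so it is absent from the conservative list. Neither was in a replicate's own thresholded list. Their pooled q values were 0.102 and 0.396, and 708 of the 1379 joint peaks likewise had a q above 0.05.

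Both lin-14 peaks are given in full on the plus strand, the strand of the gene, since no other gene's 5' end is near and the sequence is intronic. Capitals again mark the 21 bases centred on the pooled summit.
lin-14 first intronic peak: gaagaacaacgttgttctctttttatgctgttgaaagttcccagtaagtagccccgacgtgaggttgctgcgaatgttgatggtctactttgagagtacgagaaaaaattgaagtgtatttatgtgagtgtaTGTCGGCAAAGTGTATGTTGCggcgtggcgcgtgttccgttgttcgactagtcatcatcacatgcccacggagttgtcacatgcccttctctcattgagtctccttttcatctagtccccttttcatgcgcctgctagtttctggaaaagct
lin-14 second intronic peak: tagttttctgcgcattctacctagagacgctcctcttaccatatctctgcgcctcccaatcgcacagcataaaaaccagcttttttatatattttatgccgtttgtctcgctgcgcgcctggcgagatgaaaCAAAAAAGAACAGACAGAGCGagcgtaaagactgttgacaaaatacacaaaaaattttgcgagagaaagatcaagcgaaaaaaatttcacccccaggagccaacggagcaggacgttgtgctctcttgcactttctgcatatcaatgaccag
Their G and C content was 45.8% and 44.4%, close to the joint median of 44%.

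No listed motif was found at the joint peaks of these genes. Within 150 bp of the summit, on either strand, none of the 4 peaks at lin-14, lin-28 and lin-46 held ACAATGT, a core bound by DM-domain proteins such as MAB-3 and Doublesex (fly). That heptamer was in 4.35% of the same windows at all joint peaks and in 4.89% at ranked peaks over the IDR threshold. GTTCGANTC, the core of the box B promoter element inside tRNA genes, was also absent from the 4 windows and present in 8.19% of those at joint peaks. GAGAGAG (14.1% of joint windows) and TTTAAA (27.7%) were absent too. The nearest tRNA, snRNA, snoRNA or microRNA gene was 6516 bp or more from each of the 4 summits.

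**Figure D2:**
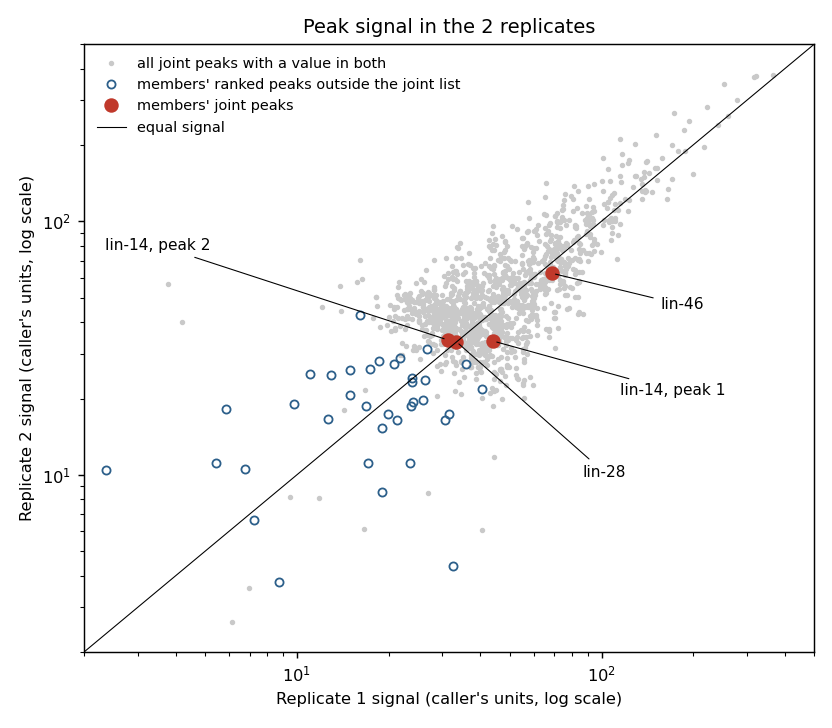
Signal in replicate 1 (horizontal, log scale) and replicate 2 (vertical, log scale), in the caller's units, with 1 point a peak. Grey points are the 1272 joint peaks with a ranked peak in both replicates within 100 bp, red points the 4 joint peaks at lin-46, lin-14 and lin-28, and open circles the members' other ranked peaks. The lin-46 point stands apart from the other red points at 68.8 and 62.4, and the line marks equal signal.

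The plot of one replicate against the other places the 4 joint peaks among all joint peaks. Their ratios of replicate 1 to replicate 2 signal ran from 0.917 to 1.31. Over the 1272 joint peaks with both values the median ratio was 0.917, with 10th and 90th percentiles of 0.566 and 1.42. Of the members' 133 ranked peaks, 40 (30.1%) had a ranked peak in both replicates within 100 bp, and so did 18.9% of all 112594 pooled ranked peaks and 92.2% of the joint peaks. All 4 joint peaks at the members had one in both.

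lin-28 encodes an RNA-binding protein that blocks maturation of let-7 and is conserved in mammals, and it had 1 joint peak, in its upstream region. The peak (chromosome I, 8411140 to 8411423) had a pooled signal of 70.2, rank 1093 of 1379, and a summit 478 bp upstream of the 5' end of lin-28 (WBGene00003014, minus strand, 8407630 to 8410804). Its signal was 33.3 in replicate 1 and 33.5 in replicate 2, a mean of 33.4 ± 0.146 (SD, n = 2). This was the smallest raw difference between replicates among the 4 joint peaks, in signals not scaled between replicates. The ratio of replicate 1 to replicate 2 was 0.994, against a median of 0.917 over joint peaks. The summit was placed 499 bp and 486 bp upstream in replicates 1 and 2.

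Even so, neither replicate alone passed lin-28. Its global IDR was 0.00503 in the pooled list and 0.00853 between replicates, against 0.119 in replicate 1 and 0.201 in replicate 2, and its pooled q was 0.293. In replicate 2 the first lin-14 peak and the lin-28 peak were close in rank, at 3091 and 3163 of 61188. The nearest other 5' end was that of F02E9.7 (WBGene00008531), on the plus strand and 1140 bp from the summit, so that lin-28 was the nearer of this divergent pair, whose 5' ends are 1618 bp apart. The next ranked peaks at lin-28 had signals of 53.9, in coding sequence, and 44.3, in the 5' UTR, with global IDR values of 0.134 and 0.110.

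The 4 members without a joint peak had strongest ranked peaks of 50.3 to 63.9, below the lin-28 peak. Between replicates, the global IDR of these peaks was 0.0215 at lin-42, 0.186 at lin-29, 0.0918 at hbl-1 and 0.0988 at lin-41. The global IDR values given below are those of the pooled list unless a replicate is named. At lin-42 the strongest was intronic, 5251 bp downstream of the 5' end, with a pooled signal of 63.9 and a global IDR of 0.0347. Replicate 1 had a signal of 35.6 there, and the ranked list of replicate 2 had no summit within 100 bp. A second lin-42 peak, 9728 bp downstream, had 26.7 and 31.3 in the replicates, a pooled signal of 61.1 and a global IDR of 0.0482. Both missed the threshold in every ranked list that held them. The gene has 7 annotated transcripts, and the second summit was 1404 bp downstream of the nearest transcript start.

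lin-29 encodes the zinc finger factor that drives the larva-to-adult switch, and its strongest ranked peak differed most between replicates among the strongest peaks of members with both values. The peak was in the 3' UTR, 17518 bp from the 5' end, with a pooled signal of 56.2 and a global IDR of 0.0295. It had a signal of 16.1 in replicate 1 and 42.7 in replicate 2, a ratio of 0.376, which is below the 10th percentile of joint peaks. In replicate 2 it ranked 1091 of 61188, above both lin-14 and lin-28, with a global IDR of 0.0587. Near the 5' end of lin-29 ranked signals were lower: the strongest summit within 2 kb of it, 318 bp downstream, had 21.3. Around the internal start of transcript W03C9.4c.1, 13905 bp downstream, the strongest summit within 2 kb had 30.5.

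hbl-1 encodes a Hunchback-like zinc finger factor of early larvae, and its strongest ranked peak was in coding sequence 2011 bp downstream of the 5' end, with a pooled signal of 50.9 and a global IDR of 0.152. The replicates had 20.9 and 27.3. lin-41 encodes a TRIM-NHL protein, an RNA-binding target of let-7, and its strongest ranked peak was in coding sequence 852 bp downstream of the 5' end, with a pooled signal of 50.3 and a global IDR of 0.036. The replicates had 24.0 and 23.2. Measured from the nearest annotated transcript start, the hbl-1 summit lay 1021 bp downstream and the lin-41 summit 275 bp downstream. Both pooled signals were above 41.1, the median strongest signal over protein-coding genes with a ranked peak. Of all protein-coding genes, 22.4% had a stronger ranked peak than hbl-1 and 23.7% a stronger one than lin-41. Their windows were longer than most: 86.8% of genes had a shorter window than hbl-1 and 91.9% a shorter one than lin-41.

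By strongest pooled peak the order was lin-46, lin-14, lin-28, lin-42, lin-29, hbl-1 and lin-41. Only lin-46 stood above all the others in both replicates' signals at those peaks. lin-14 and lin-28 were nearly equal in replicate 2 (33.7 and 33.5), so their order rests on replicate 1 (44.1 and 33.3). lin-42 was above lin-28 in replicate 1 (35.6 and 33.3) and had no matched summit in replicate 2. lin-29 was the lowest of the 7 in replicate 1 (16.1) and below lin-46 alone in replicate 2 (42.7). hbl-1 and lin-41 were not separated, since hbl-1 was lower in replicate 1 and higher in replicate 2. The order from lin-14 down thus differs between the replicates. With 2 replicates and signals not scaled between them, no test was made.

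**Figure D3:**
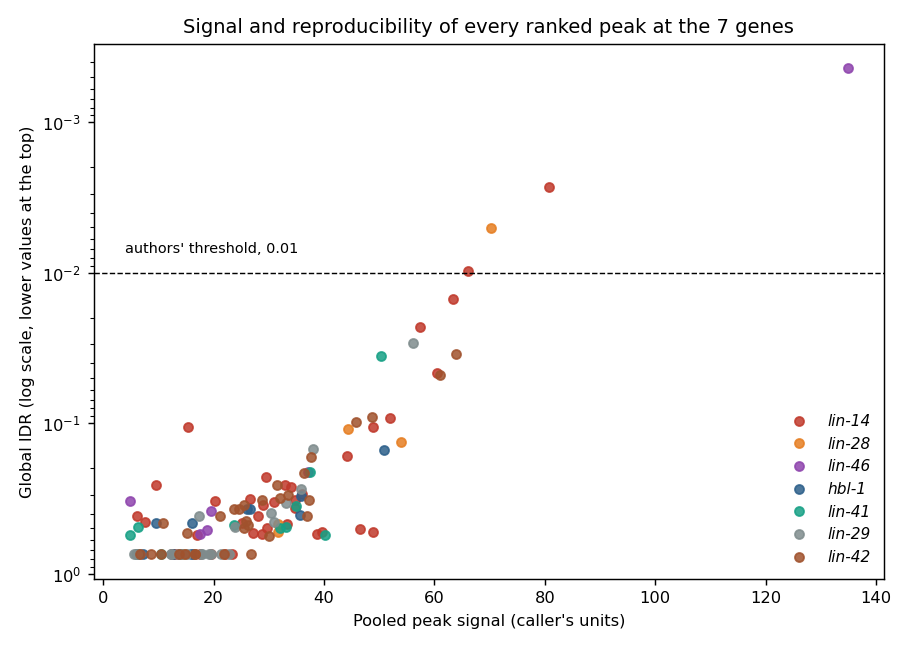
Global IDR (vertical, log scale, lower values at the top) against pooled signal (horizontal, caller's units) for the 133 ranked peaks at the 7 genes, with 1 colour a gene. The IDR is that of the pooled list, which compares splits of the pooled reads and not the replicates with each other. The dashed line, labelled as the authors' threshold, is the 0.01 inferred from the joint list. The 4 peaks above it belong to lin-46, lin-14 and lin-28, and the nearest below it to lin-14.

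The threshold falls within a run of similar values rather than in a gap, as the plot of signal against global IDR shows. Just inside it was the second lin-14 peak, at a signal of 66.2 and a global IDR of 0.0097. Just outside it were another intronic lin-14 peak, at 63.3 and 0.0149, and a lin-14 peak in the 3' UTR, at 57.4 and 0.023. That intronic peak had a signal of 40.6 in replicate 1 and 21.8 in replicate 2. In all, 11 of the 133 ranked peaks had a global IDR under 0.05. The share over all pooled ranked peaks at this value was not computed, so nothing is read from that count.

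Among other genes of the pathway, 8 of 31 (25.8%) had a joint summit in the same kind of window, all of them protein-coding (8 of 26, 30.8%), against 7.37% of all protein-coding genes. This list was chosen with earlier results of these data known, so nothing is read from that difference. The median window of those 26 genes was 8426 bp, longer than the 4027 bp of all protein-coding genes. The 4 found in both replicates' own lists were nhl-2, puf-9, xrn-2 and ain-1, and lep-2 was in the list of replicate 2 alone. Over all protein-coding genes, 3.58% had a summit in the list of replicate 1 and 3.35% in that of replicate 2. din-1, lin-66 and nhr-85 were in neither.

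The strongest of these peaks were at nhl-2, puf-9, xrn-2 and ain-1. nhl-2, which encodes a TRIM-NHL cofactor of the microRNA-induced silencing complex, had a peak of signal 243, with 100 in replicate 1 and 145 in replicate 2. puf-9, a Pumilio-family repressor of hbl-1, had a peak of 196, with 101 and 96.8. xrn-2, an exonuclease that degrades microRNAs, had a peak of 189, with 86.2 and 108. ain-1, a GW182-type partner of Argonaute, had a peak of 119 upstream, with 56.2 and 61.2, and a second of 74.2 in coding sequence. All of these first peaks exceeded the lin-14 and lin-28 peaks in both replicates, and those at nhl-2, puf-9 and xrn-2 exceeded the lin-46 peak too.

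Several of these summits were nearer to another gene. The puf-9 summit was 307 bp upstream of that gene and the ain-1 summit 964 bp upstream, each with no nearer protein-coding 5' end. The nhl-2 summit was 845 bp upstream, but 578 bp from the 5' end of tag-340. The xrn-2 summit was 1204 bp upstream, but 191 bp from that of Y48B6A.1. The lep-2 summit (signal 88.9), at a Makorin gene that times male tail tip retraction, was 990 bp upstream and 841 bp from the 5' end of egrh-2. Thus lin-46, nhl-2, xrn-2 and lep-2 each shared their peak with a neighbour whose start was closer.

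At the remaining genes of the wider pathway no other protein-coding gene's 5' end was nearer. lin-66, which lowers lin-28 expression, had a summit 357 bp upstream with a signal of 74.1, and the replicates had 28.7 and 37.6. In the conservative list lin-66 had no summit. din-1, a corepressor of the nuclear receptor DAF-12, had a summit 720 bp upstream with a signal of 93.1, of which replicate 2 had 47.9 and replicate 1 no ranked summit within 100 bp. nhr-85, a nuclear receptor that oscillates with the moults, had an intronic summit 1508 bp downstream of its 5' end with a signal of 76.2, and the replicates had 28.7 and 44.2.

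None of the 5 microRNA genes had a joint summit. The share over all microRNA genes was not computed, so nothing is read from this count. The strongest ranked peaks at these 5 genes were 60.8 at mir-84, 59.0 at lin-4, 49.4 at let-7, and 36.1 at both mir-48 and mir-241. Of the 23 pathway genes without a joint peak, pash-1 had no ranked peak in its window, and the others had strongest ranked signals of 35.4 to 64.5. That range holds the strongest signals at hbl-1, lin-41, lin-29 and lin-42.

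**Figure D4:**
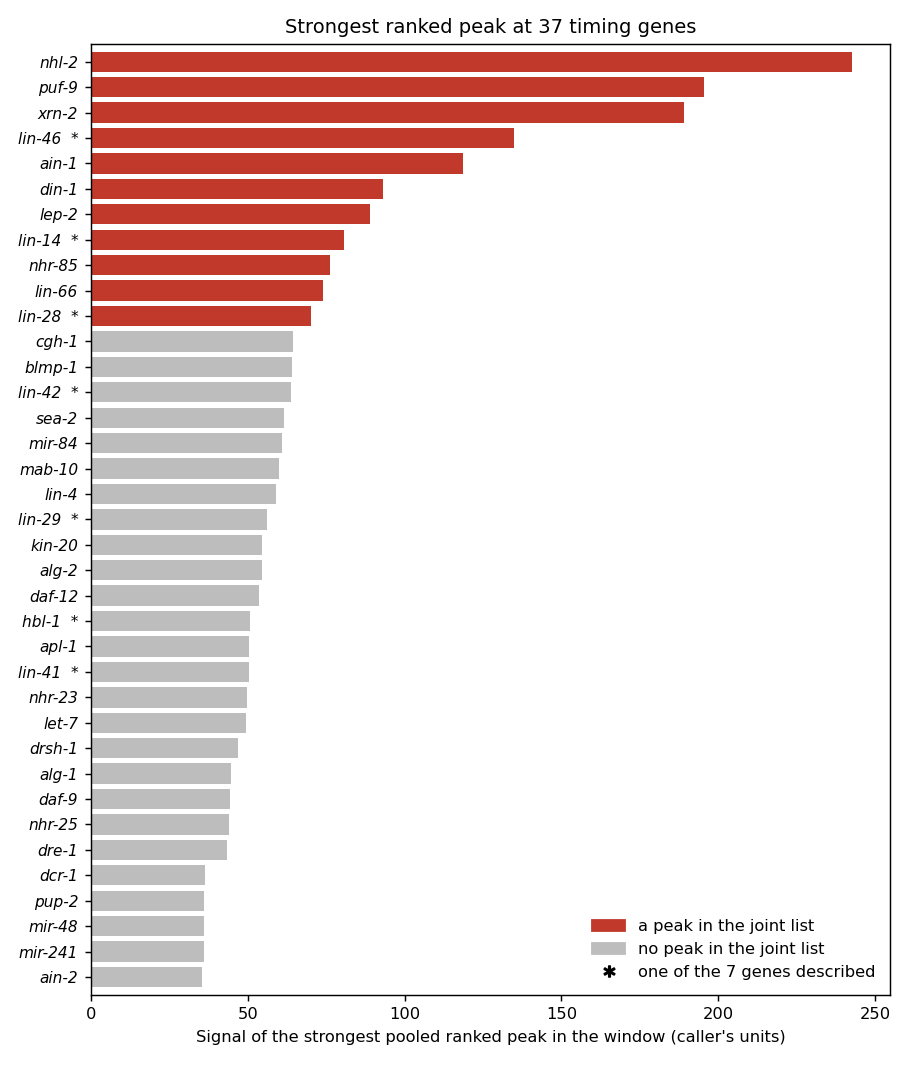
Signal of the strongest pooled ranked peak in the window (horizontal, caller's units, from 0) for 37 developmental timing genes. Red bars are genes with a joint peak, grey bars genes without, and an asterisk marks lin-14, lin-28, lin-46, hbl-1, lin-41, lin-29 and lin-42. nhl-2 stands at the top with 243, lin-46 comes next after nhl-2, puf-9 and xrn-2, and every red bar is longer than every grey bar.

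Genes whose strongest joint peak was most like those of the 3 members were sought by the distance between log10 signals in the 2 replicates, over 1394 protein-coding genes. For lin-46, R186.8 and R186.3 share its peak, and the next was Y116A8C.43 on chromosome IV (69.9 and 62.2 in the replicates, distance 0.0068). For lin-28, F02E9.7 shares the peak, and the next were Y65B4BL.7 (33.4 and 33.6) and rund-1 (33.0 and 33.5). For lin-14, pif-1 and rec-1 (both 44.0 and 34.3, from 1 peak) and ehbp-1 (44.1 and 33.0) were nearest. With 2 values a gene, such likeness describes signal size alone.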

How the data were processed

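Peak lists from ChIP-seq of 2 biological replicates were analysed. The deposited lists are named as ce11, whose coordinates are those of WBcel235; no peak ended past a WBcel235 chromosome. For alignment and peak calling, tools and settings are not given in the labels or files used here. A control library is named in the labels and was not used here. The authors deposited a signal per peak, not scaled between lists, a −log10 q value, in ranked lists a −log10 IDR, and an IDR score of up to 1000, which was not analysed further. Read counts were not used here, so depth is unknown, and no interval is given. Summits were assigned to windows from Ensembl release 115 (microRNA names from RefSeq, WBcel235). A peak was matched between lists when summits lay within 100 bp: a missing match says only that the replicate's ranked list holds no such summit. Sequences came from the RefSeq WBcel235 genome. The window code was tested on simulated data, and all ran in Python 3.11.15 with pandas 2.3.3. The 7 members, the wider list and the motifs were chosen with earlier results of these data known, so there are counts and values but no tests. Genes named are the 7, wider-list genes with a joint summit, the nearest neighbours of the members' peaks, and the 3 genes most alike per member. The microRNA genes, pash-1, drsh-1 and the neighbours of wider-list peaks fall outside that rule and were chosen after their values were seen. The wider list has 31 genes. Columns for paired calls, 8 in each of the 4 ranked lists, were not used.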

Additional observations from a re-analysis of the deposited data

How the results depend on the processing

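The count of members with a peak was also 3 with 1000 bp or 5000 bp upstream, any overlap of the peak, the conservative list and the pooled ranked list at a global IDR of 0.01. The shares of all protein-coding genes under these settings were 5.95%, 10.6%, 7.83%, 7.17% and 7.42%, in that order. The count was 2 with 500 bp upstream (lin-14 and lin-28), against 5.14% of genes. With the nearest 5' end only it was 2 (the same pair), against 4.69%. At a global IDR of 0.001 it was 1 member (lin-46), with 4 genes of the wider list and 2.88% of all protein-coding genes. With q at or under 0.05 it was 1 member (lin-46) and 4.1% of genes. The wider list had 4 genes with 500 bp upstream, where the share of all genes was 5.14%, and 5 with the nearest 5' end only, where it was 4.69%. With 5000 bp upstream it had 9, through drsh-1, and the share was 10.6%. In the conservative list it had 7, without lin-66, and the share was 7.17%. Leaving out either replicate gave 1 member in both cases, 4 to 5 wider genes and 3.35% to 3.58% of genes. Fewer peaks enter each stricter list. The strongest signal in each member's window was recomputed 28 times, and 14 values moved by more than the SD of the replicates' own strongest signals there. All 14 came from leaving out a replicate, where the strongest ranked peak of the other replicate, which need not be the same peak, replaces that of the pooled list. Over joint peaks the pooled signal was about the sum of the replicates' signals (median ratio 1, 10th to 90th percentile 0.933 to 1.07). Leaving out a replicate therefore lowers the signal by construction. The other 14 values came from the same pooled signals and did not change. Neither outcome measures how stable the signals are. No paired analysis was possible because there is 1 group. How far depth limits these counts is unknown.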
